A study of Mus musculus with 4 samples.

Results

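The set described here consists of 10 genes of cholesterol efflux and lipoprotein scavenging, chosen by name, and all 10 of them were among the 12661 genes listed by symbol in the deposited table. They are the cholesterol exporters *Abca1* and *Abcg1* with the acceptor *Apoe*, the liver X receptors *Nr1h3* and *Nr1h2* with their target *Mylip*, and the lipoprotein and scavenger receptors *Scarb1*, *Msr1*, *Marco* and *Olr1*. RNA came from the tissue outside the femoral artery (FA), mainly perivascular adipose tissue (PVAT), of wild type C57BL/6 mice. All mice were ovariectomized females of 11 weeks, so the sham-operated controls lacked ovaries as well. In the injury group a spring wire of 0.38 mm had been passed into the FA, the sham group had a sham operation, and both were sampled at 48 h. Each group had 2 libraries, and whether a library holds 1 mouse or several was not stated in the sources used here.

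Cells cannot break down the sterol ring, so macrophages that take up lipoproteins or dead cells must export or esterify the cholesterol. Export runs through the ATP-binding cassette transporters ABCA1, which loads lipid-poor apolipoproteins, and ABCG1, which loads HDL. The nuclear receptors LXRα (*Nr1h3*) and LXRβ (*Nr1h2*) sense oxysterols and induce both transporters, apolipoprotein E and the ubiquitin ligase IDOL (*Mylip*), which limits lipoprotein uptake. Scavenger receptors, which bind modified lipoproteins, are the intake side of this system.

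The deposited values are signed, run from -2.27 to 6.45 and look like values on a log scale, of a base and a zero point that are not stated. The median of each library is near 0, but 0 is not the mean of a gene over these 4 libraries, since *Apoe* and *Marco* were below 0 and *Mylip* above 0 in all of them. The sign of a single value therefore has no meaning here, only differences between libraries are read, and levels of different genes cannot be compared. For the same reason no fold change is given, depth is unknown, and the presence of adipocytes could be checked only by the listing of their markers, all 12 of which were in the table. Differences below are injury minus sham means in deposited units, tested with limma and adjusted by the Benjamini-Hochberg method across all 12661 genes. For a single gene, an exact permutation test over so few libraries has p = 0.333 as its smallest value. Injury replicate 1 had higher macrophage marker values (mean 0.57) than injury replicate 2 (mean -0.03), and higher neutrophil marker values (means 1.26 and 0.12). Sham replicate 1 had higher marker means than sham replicate 2 for smooth muscle (1.55 and 0.88), skeletal muscle (0.68 and -0.19) and fibroblasts (0.30 and -0.19). It had lower means for neutrophils (-1.25 and -0.91), adipocytes (0.22 and 0.34), endothelium (0.68 and 0.73) and macrophages (-1.14 and -1.12).

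None of the 10 genes reached an adjusted p-value under 0.05 by limma, a threshold that 7.43% of all genes passed. At an unadjusted p-value under 0.05 there were 3, *Abcg1*, *Msr1* and *Abca1*, against 29.5% of all genes. Both injury libraries lay on one side of both sham libraries in 5 of the 10 genes, against 61.9% of all genes. Of these 5 genes, 3 were above sham (*Abcg1*, *Msr1* and *Mylip*; 31.6% of all genes) and 2 below (*Abca1* and *Olr1*; 30.3% of all genes). The median difference of the 10 genes was -0.08, beside 0.01 over all genes. The genes thus did not move as one group, and the values of single members ran from -1.11 for *Olr1* to 1.41 for *Msr1*. In bulk tissue, fewer cells of a type and less RNA per cell cannot be told apart.

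**Figure D1:**
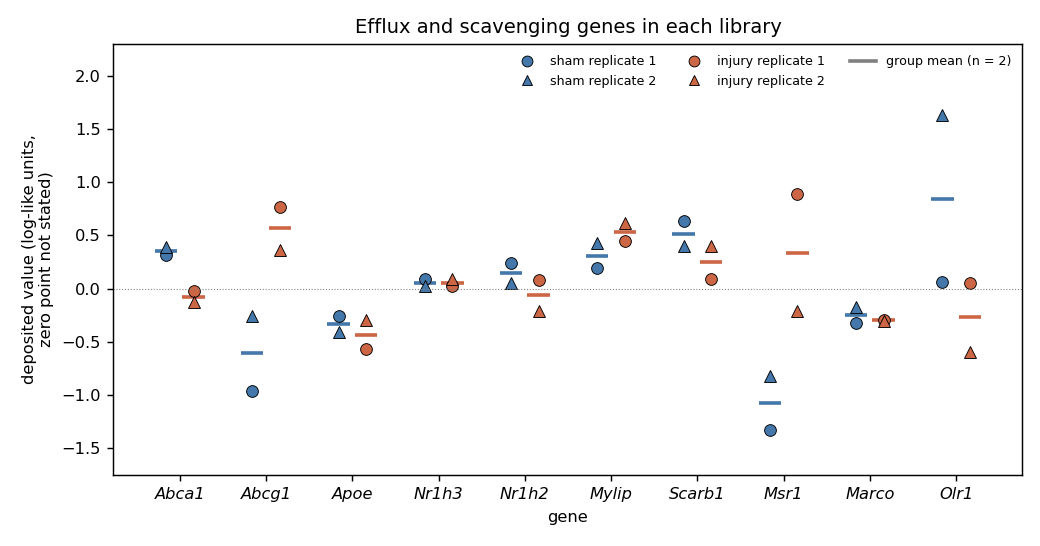
Deposited value (vertical axis, log-like units with an unstated zero) of the 10 genes in each of the 4 libraries, with sham in blue, injury in orange, circles for replicate 1, triangles for replicate 2 and bars for group means. *Abcg1* and *Msr1* were higher and *Abca1* lower in both injury libraries, while the spread of *Olr1* came from sham replicate 2 at 1.63.

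*Abca1* had the tightest replicates of the genes whose groups did not overlap. It lies on chromosome 4 of mm9 from 53043659 to 53172767 on the minus strand. Its values were 0.32 and 0.39 in the sham libraries and -0.02 and -0.13 in the injury libraries. Both injury libraries were below both sham libraries, and the gaps between replicates were 0.07 and 0.11. The difference was -0.43 (standard error 0.14, 95% interval -0.77 to -0.09), with an adjusted p-value of 0.111 from limma that did not pass. Leaving out each library in turn kept the difference between -0.48 and -0.38.

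The promoter of *Abca1* is shown because the LXR element known from this promoter lies in it, next to the transcription start. The window is chr4:53159846-53160145 of GRCm38.p6, minus strand, taken from RefSeq and printed 5′ to 3′ from 250 bases before the start to 50 bases after it.

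Abca1: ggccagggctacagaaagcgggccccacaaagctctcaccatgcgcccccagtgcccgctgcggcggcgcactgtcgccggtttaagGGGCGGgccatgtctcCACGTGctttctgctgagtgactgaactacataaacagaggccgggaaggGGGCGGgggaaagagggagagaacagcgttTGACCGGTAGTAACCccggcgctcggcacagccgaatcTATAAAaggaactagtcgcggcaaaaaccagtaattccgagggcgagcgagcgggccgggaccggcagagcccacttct

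Capitals mark matches, on either strand, to a direct repeat with 4 spacer bases, to the E-box CACGTG, the TATA box TATAAA and the GC box GGGCGG. The direct repeat, GGTTANNNNCGGTCA, was found on the strand opposite to the one printed, at bases 184 to 198, which begins 67 bases before the start site. Those letters were chosen to fit the element known in this promoter, after a first form had matched no promoter of the set and other patterns had been looked at, so the match is no finding. They occurred in 4 of 32851 promoters (0.0122%). The repeat of consensus half-sites, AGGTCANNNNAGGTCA, was in 5 promoters (0.0152%) and in none of the 10 promoters that RefSeq gave for 7 of the genes. The E-box was in 7.15%, the TATA box in 13.6% and the GC box in 35.7% of all promoters. A match describes letters only and is not a measured binding site. Promoter entries for *Abcg1*, *Scarb1* and *Msr1* were not used here.

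*Abcg1*, the exporter that loads HDL, stood on the other side of sham from *Abca1*. It lies on chromosome 17 of mm9 from 31194643 to 31252722 on the plus strand. Its values were -0.96 and -0.26 after sham operation and 0.77 and 0.37 after injury. Injury lay above sham without overlap, and the sham libraries stood 0.71 apart, a wider gap than in 96.7% of genes. The difference was 1.18 (standard error 0.28, 95% interval 0.48 to 1.87, adjusted p = 0.0629 from limma). The call depended on the scaling of the columns. The adjusted p-value from limma was 0.046 after quantile normalization and 0.049 with the columns brought to one spread, both under the threshold. It was 0.0848 with a replicate block. In these 3 settings 1061, 1095 and 684 genes of the whole table were called, beside 941 in the main fit. Leaving out sham replicate 1 gave a difference of 0.82, leaving out sham replicate 2 gave 1.53, leaving out injury replicate 1 gave 0.97 and leaving out injury replicate 2 gave 1.38. The adjusted p-values from limma were 0.265, 0.113, 0.154 and 0.0479 in that order, and in the last setting, the only one to pass, 1790 genes of the whole table were called.

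The exporters were also compared with each other inside each library, a pair chosen after their values were seen. *Abcg1* minus *Abca1* was -1.28 and -0.65 in the sham libraries and 0.79 and 0.49 in the injury libraries. The shift between groups was 1.61 units, larger than the gap between replicates on either side, and it was not tested further.

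*Apoe*, which encodes the apolipoprotein that macrophages and adipocytes secrete as a cholesterol acceptor, lies on chromosome 7 of mm9 from 20281458 to 20284515. It was at -0.25 and -0.41 after sham operation and at -0.57 and -0.30 after injury. The groups overlapped, and the difference of -0.10 had a 95% interval from -0.50 to 0.30 (adjusted p = 0.72 from limma). Its sign turned to 0.03 when injury replicate 1 was left out.

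Neither LXR gene separated the groups, and the difference of *Nr1h3* was the smallest of the set. *Nr1h3*, which encodes LXRα, the form enriched in macrophages, adipose tissue and liver, lies on chromosome 2 of mm9 from 91024218 to 91042991. It was at 0.09 and 0.02 in the sham libraries and at 0.03 and 0.09 in the injury libraries. The groups overlapped entirely, and 0.261% of genes had a difference as small or smaller in size. The difference was -0.001 with a 95% interval from -0.34 to 0.33, so a change of such a size in either direction was not excluded.

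*Nr1h2*, which encodes the broadly expressed LXRβ, lies on chromosome 7 of mm9 from 51804986 to 51809321. Its sham values were 0.24 and 0.06 and its injury values 0.08 and -0.21. The groups overlapped, and the difference was -0.21 (95% interval -0.63 to 0.21, adjusted p = 0.449 from limma). It was -0.07 when injury replicate 1 was the only injury library used and -0.36 when injury replicate 2 was.

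*Mylip*, which encodes the LXR-induced ligase IDOL, lies on chromosome 13 of mm9 from 45485111 to 45507388. It was at 0.19 and 0.43 after sham operation and at 0.45 and 0.62 after injury. Both injury libraries were above both sham libraries, though injury replicate 1 exceeded sham replicate 2 by far less than the sham libraries differed from each other. The difference was 0.22 (95% interval -0.17 to 0.62, adjusted p = 0.404 from limma), and it was 0.10 with sham replicate 1 left out and 0.34 with sham replicate 2 left out. The promoter of *Mylip* is printed beside that of *Abca1* because both genes respond to LXR and their differences had opposite signs. It is chr13:45389492-45389791 of GRCm38.p6, plus strand, from RefSeq, with the GC box and TATA box in capitals.

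Mylip: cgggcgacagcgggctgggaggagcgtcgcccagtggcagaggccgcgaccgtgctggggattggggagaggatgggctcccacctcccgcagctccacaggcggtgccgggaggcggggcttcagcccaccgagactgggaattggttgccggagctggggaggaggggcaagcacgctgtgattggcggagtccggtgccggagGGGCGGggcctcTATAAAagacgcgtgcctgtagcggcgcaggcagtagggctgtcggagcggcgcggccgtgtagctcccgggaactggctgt

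Neither form of the direct repeat nor the half-site AGGTCA, which 16.3% of promoters hold, was in this window, which says only that these letters are not in these 300 bases.

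**Figure D2:**
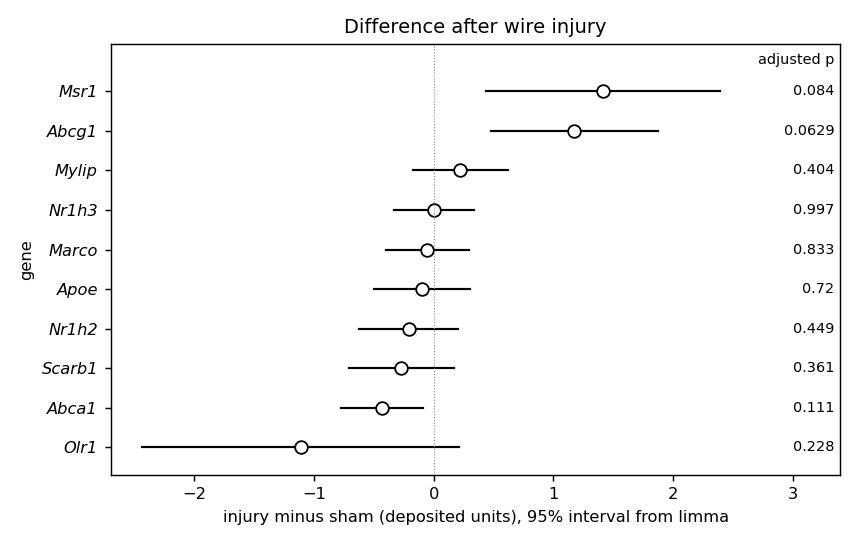
Injury minus sham (horizontal axis, deposited units) for each of the 10 genes, with the 95% interval from limma as a line and the adjusted p-value at the right. The intervals of *Msr1*, *Abcg1* and *Abca1* lay on one side of 0, and no adjusted p-value was under 0.05, the lowest being 0.0629 for *Abcg1*.

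*Msr1*, which encodes class A scavenger receptor of macrophages, had the highest difference of the set. It lies on chromosome 8 of mm9 from 40667054 to 40728032. Its values were -1.33 and -0.82 after sham operation and 0.89 and -0.21 after injury. Both injury libraries were above both sham libraries, and they stood 1.10 apart, a wider gap than in 98.3% of genes. The difference was 1.41 (standard error 0.39, 95% interval 0.44 to 2.39, adjusted p = 0.084 from limma). Its size rested on injury replicate 1: the difference was 0.86 without that library and 1.97 without injury replicate 2. Injury replicate 1 also had the higher macrophage and neutrophil marker means of the injury libraries, and their part in this was not tested.

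*Marco*, which encodes another class A scavenger receptor and is expressed by some resident macrophages, lies on chromosome 1 of mm9 from 122371115 to 122401661. Its sham values were -0.32 and -0.17 and its injury values -0.29 and -0.31. Both injury values fell inside the range of the sham values, and the difference was -0.05 (95% interval -0.40 to 0.29, adjusted p = 0.833 from limma). Whether *Msr1* and *Marco* differed in their response was not tested.

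*Scarb1*, which encodes SR-BI, the HDL receptor that takes up cholesteryl ester and lets free cholesterol pass in both directions, lies on chromosome 5 of mm9 from 125757457 to 125821464. It was at 0.63 and 0.40 in the sham libraries and at 0.09 and 0.41 in the injury libraries. Injury replicate 2 lay level with sham replicate 2, so the groups overlapped. The difference was -0.27 (95% interval -0.71 to 0.17, adjusted p = 0.361 from limma), and it was -0.11 without injury replicate 1.

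*Olr1*, which encodes LOX-1, a receptor for oxidized LDL on endothelium, smooth muscle and macrophages, lies on chromosome 6 of mm9 from 129435264 to 129457183. It was at 0.06 and 1.63 after sham operation and at 0.05 and -0.59 after injury. The groups were separated only narrowly, since sham replicate 1 and injury replicate 1 differed by less than 0.01, and the gap between the sham libraries (1.57) was wider than in 99.8% of genes. The difference of -1.11 had a 95% interval from -2.44 to 0.21 (adjusted p = 0.228 from limma). Leaving out sham replicate 2 reduced it to -0.33 and leaving out sham replicate 1 widened it to -1.90, so its size rested on 1 library. The promoter of *Olr1* is shown because it was the only one of the 10 windows with the half-site AGGTCA and with the AP-1 letters TGACTCA. It is chr6:129507116-129507415 of GRCm38.p6, minus strand, from RefSeq, and those letters are in capitals, the AP-1 letters on the strand opposite to the one printed.

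Olr1: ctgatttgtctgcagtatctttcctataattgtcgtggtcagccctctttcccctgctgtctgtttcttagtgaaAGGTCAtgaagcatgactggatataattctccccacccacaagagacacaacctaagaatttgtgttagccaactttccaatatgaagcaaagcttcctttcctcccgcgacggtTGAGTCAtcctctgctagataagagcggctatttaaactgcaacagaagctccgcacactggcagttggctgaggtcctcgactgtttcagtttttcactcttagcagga

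The AP-1 letters were in 5.20% of all promoters.

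Markers of macrophages, a cell type in which several of these genes are known, moved with injury. Of 16 macrophage markers, 11 rose by limma, 15 had both injury values above both sham values, and the median difference was 1.42. The mean over the 16 markers was -1.14 and -1.12 in the sham libraries and 0.57 and -0.03 in the injury libraries. *Mertk*, an engulfment receptor that also stands in the list of LXR targets, was the exception with overlapping groups and a difference of 0.14. All 7 neutrophil markers in the table were higher in both injury libraries, with a median difference of 1.86, and 2 of the 7 rose. Of other markers, 9 of 10 for endothelium, 8 of 8 for smooth muscle, 6 of 12 for adipocytes, 4 of 7 for skeletal muscle and 4 of 8 for fibroblasts were lower in both injury libraries, and 3, 4, 1, 0 and 4 of them fell. Of all genes, 31.6% were above and 30.3% below sham in both injury libraries, 3.76% rose and 3.67% fell. At an unadjusted p-value under 0.05 there were 4 of the skeletal muscle markers, 3 of them lower and 1, *Pvalb*, higher after injury, beside 29.5% of all genes. The part of a changed cell makeup in the values of the 10 genes was not tested.

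Set against the mean of the 16 macrophage markers in the same library, 9 of the 10 genes had a smaller difference than the markers, whose mean difference was 1.40, as had 97.8% of all genes. *Msr1* had the difference nearest to that of the markers. Its value minus the marker mean was -0.19 and 0.30 in the sham libraries and 0.32 and -0.18 in the injury libraries, a shift of 0.01. *Abcg1* followed, with 0.18 and 0.86 in the sham libraries, 0.20 and 0.40 in the injury libraries and a shift of -0.23. For these genes the relative values of the groups overlapped. The other 8 genes had lower relative values after injury, with no overlap between the groups and with shifts of -1.18 for *Mylip*, -1.40 for *Nr1h3*, -1.45 for *Marco*, -1.50 for *Apoe*, -1.61 for *Nr1h2*, -1.67 for *Scarb1*, -1.83 for *Abca1* and -2.51 for *Olr1*. Such separation was seen in 95.9% of all genes, since the marker mean itself differed by 1.40, so it says nothing particular about these 8. These relative values were given no test. With each library left out in turn, the shift ran from -0.57 (without sham replicate 1) to 0.12 (without sham replicate 2) for *Abcg1* and from -0.24 (without injury replicate 1) to 0.26 (without injury replicate 2) for *Msr1*, so neither sign was stable. The shift of *Msr1* was also below 0 after quantile normalization (-0.02), with one column spread (-0.03) and against the marker median (-0.07), so that all 10 genes were below the markers in those settings, and 8 were without sham replicate 2.

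**Figure D3:**
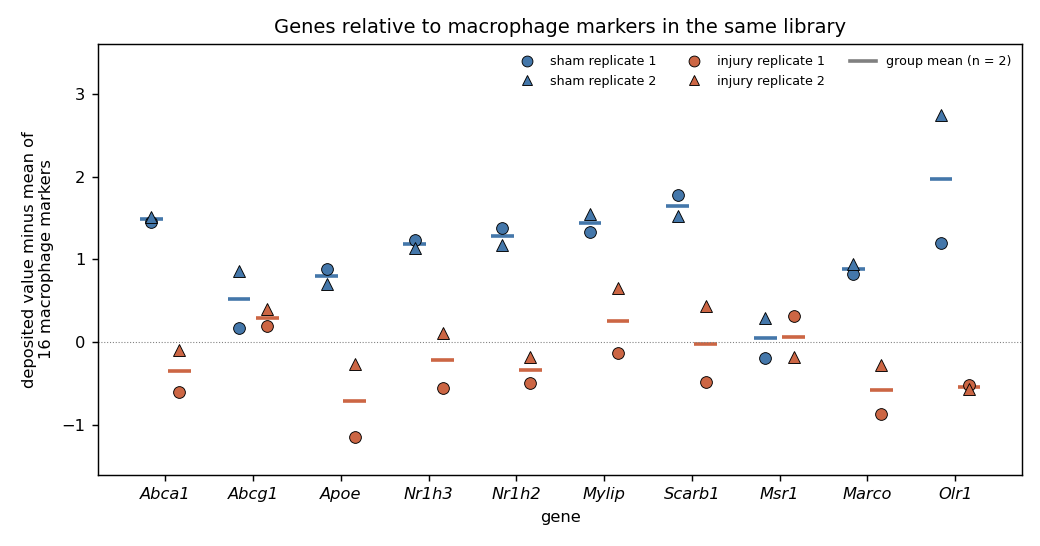
Deposited value of each of the 10 genes minus the mean of the 16 macrophage markers in the same library (vertical axis, deposited units), with sham in blue, injury in orange, circles for replicate 1, triangles for replicate 2 and bars for group means. The groups overlapped for *Abcg1* and *Msr1* and were separate, with injury lower, for the other 8 genes; heights of different genes cannot be compared, since what 0 stands for is not stated.

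The rest of the pathway was read from 5 lists, against backgrounds of 3.76% of all genes called higher and 3.67% called lower. Of 17 genes listed for cholesterol handling in macrophages, but measured here in bulk tissue, 3 rose and none fell, with a median difference of 0.24. The mean difference of the macrophage markers was 1.40. The part of a changed cell makeup in the values of the 5 lists was not tested. *Soat1*, which encodes the acyltransferase that makes the cholesteryl esters of foam cells, was at -0.86 and -0.85 after sham operation and at 1.04 and 0.55 after injury. It rose by 1.65 (standard error 0.20, adjusted p = 0.0285 from limma). *Nceh1*, a cholesteryl ester hydrolase gene, went from -1.09 and -0.89 to 0.73 and 0.04, a difference of 1.38 (adjusted p = 0.0411 from limma). *Cyp27a1*, which encodes the mitochondrial enzyme that makes an oxysterol ligand of LXR, went from -0.89 and -0.79 to 0.26 and 0.27. It rose by 1.11 (standard error 0.13, adjusted p = 0.0285 from limma). *Nceh1* lost its call with a replicate block (adjusted p = 0.0514 from limma). Its injury values, like the marker means, were higher in injury replicate 1. Without sham replicate 1 or without sham replicate 2, when 0 and 1 genes of the whole table were called, all 10 genes named as called in the pathway lists lost their calls, with adjusted p-values from 0.113 to 0.227 from limma. Without injury replicate 1, *Soat1*, *Cyp27a1* and *Arl4c* passed and the other 7 did not.

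Of 22 LXR targets and partners, 2 rose and 1 fell, and the median difference was 0.15. *Apoc2*, the activator of lipoprotein lipase encoded in the *Apoe* cluster, was at -1.36 and -0.79 in the sham libraries and at 0.56 and 0.21 in the injury libraries. It rose by 1.46 (adjusted p = 0.033 from limma). The difference of its neighbour *Apoe* was -0.10, and that of *Apoc1* in the same list was 0.34 (adjusted p = 0.229 from limma). Whether these genes differed from each other was not tested. *Arl4c*, a small GTPase gene induced by LXR in macrophages, rose by 1.41 from -1.07 and -1.05 to 0.58 and 0.12 (adjusted p = 0.0291 from limma). *Nrip1*, a nuclear receptor cofactor gene, fell by 1.14 from 0.86 and 0.75 to -0.50 and -0.16 (adjusted p = 0.0303 from limma). In this list 10 genes were above and 4 below sham in both injury libraries and 8 overlapped, beside 31.6% of all genes above and 30.3% below.

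**Figure D4:**
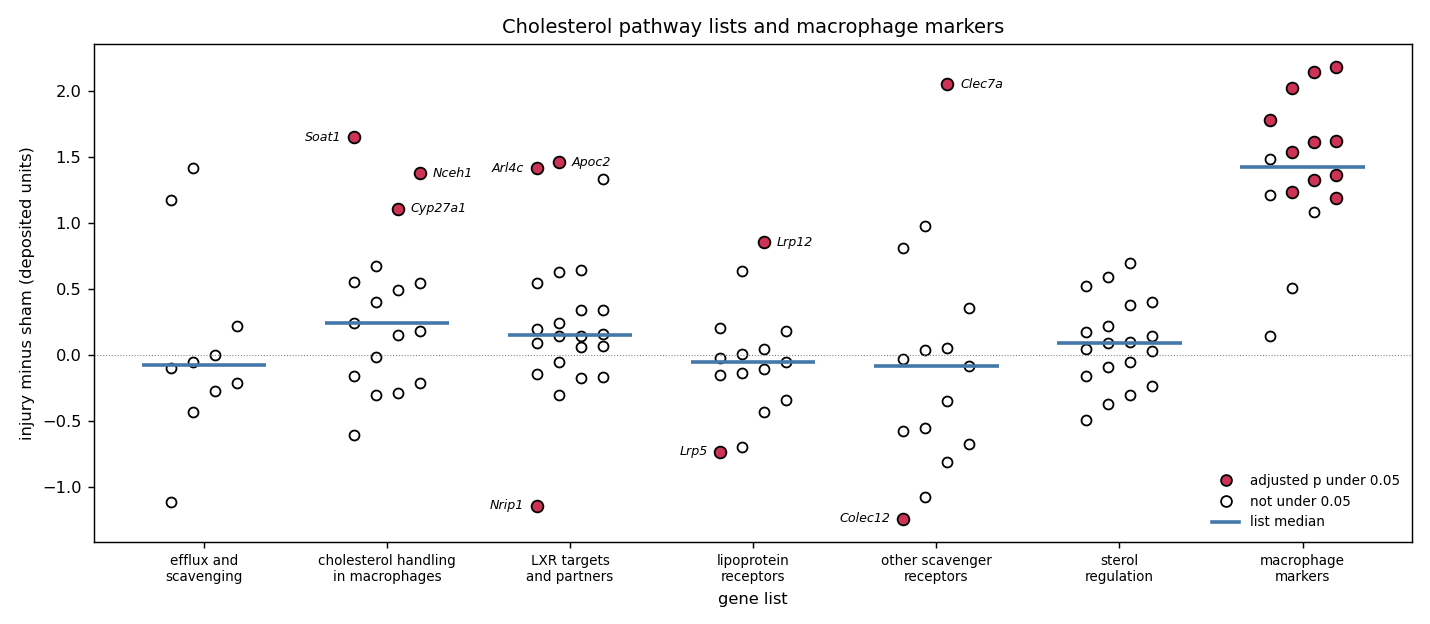
Injury minus sham (vertical axis, deposited units) of each gene in the set of 10, in 5 pathway lists and among 16 macrophage markers, with filled points for an adjusted p-value under 0.05 from limma, open points for the rest and a bar for the list median. Filled points were 0 of 10 in the set, 3 of 17, 3 of 22, 2 of 15, 2 of 15 and 0 of 19 in the pathway lists from left to right, and 11 of 16 among the markers.

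Of 15 lipoprotein receptors and related genes, 1 rose and 1 fell, and the median difference was -0.05. *Lrp12* went from -0.43 and -0.50 to 0.56 and 0.23, a difference of 0.85 (adjusted p = 0.0449 from limma). *Lrp5*, a Wnt coreceptor gene, fell by 0.73 from 0.60 and 0.78 to -0.10 and 0.02 (adjusted p = 0.047 from limma). Both calls were lost with a replicate block, and that of *Lrp5* also after either rescaling of the columns (adjusted p = 0.0599 and 0.0547 from limma).

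Of 15 further scavenger receptors, 1 rose and 1 fell, with a median difference of -0.08. *Clec7a*, which encodes the β-glucan receptor dectin-1 of myeloid cells, rose by 2.05 from -1.79 and -1.08 to 0.96 and 0.27 (adjusted p = 0.0323 from limma). *Colec12*, a scavenger receptor gene of endothelium and stroma, fell by 1.24 from 0.54 and 0.27 to -0.94 and -0.72 (adjusted p = 0.0291 from limma). Of 19 genes of sterol regulation and synthesis none was called by limma, and 4 had an unadjusted p-value under 0.05, which 29.5% of all genes had. The highest difference there was 0.70 for *Fdft1*, squalene synthase (adjusted p = 0.0711 from limma), and the lowest -0.49 for *Nsdhl*, a sterol dehydrogenase gene (adjusted p = 0.0967 from limma).

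The genes with the pattern most like that of the 3 members with the lowest adjusted p-values were found by Euclidean distance over the 4 libraries, after each gene was centred on its own mean. They are a description of 4 values per gene. Nearest to *Abcg1* were *Gpd2* (distance 0.07), *Il1rl1* (0.14) and *Elovl6* (0.15), with differences of 1.14, 1.15 and 1.19. Nearest to *Msr1* were *Oas1g* (0.13), *Ms4a4b* (0.14) and *Pou2f2* (0.15), with differences of 1.54, 1.37 and 1.46. Nearest to *Abca1* were *Cenpj* (0.02), *Vsig10* (0.03) and *Col6a3* (0.05), with differences of -0.44, -0.44 and -0.41.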

How the data were processed

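RNA from the tissue outside the FA was measured in 2 sham and 2 injury libraries, each made with a stranded mRNA kit from 480 ng of RNA. Per the submitters' processing notes and the paper's methods, FastQC 0.11.8, cutadapt 1.18 and Trimmomatic 0.39 were followed by STAR 2.6.0a on mm9, featureCounts and DESeq2 1.28.0. The values the authors deposited are signed scores with a median near 0 in each library; the step from read counts to them is not given in the sources used here, and neither is depth, so no count test, detection limit or filter on low values was applied.

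limma 3.58.1 in R 4.3.3 was fitted to all genes with the group as the only term (2 residual and 3.48 prior degrees of freedom), with Benjamini-Hochberg adjustment and a threshold of 0.05. It was tested on simulated data. p-values measure the spread between these libraries, which may be technical. Members, lists and alternatives were chosen with earlier results of these data known. Genes named from a list are up to 4 of its called genes by adjusted p-value plus the called genes with the highest and the lowest difference; of a list without calls, the highest and the lowest. *Mertk*, *Pvalb*, *Cd9*, *Apoc1* and the pair *Abcg1* and *Abca1* were added after their values were seen. Gene positions were read from GENCODE for NCBIM37, which is mm9. Promoters are from RefSeq on GRCm38.p6, a different build. Tables were made with pandas 2.3.3 and scipy 1.17.1 in Python 3.11.15, and plots with matplotlib 3.10.9. Alternatives were a replicate block, quantile normalization, one column spread, a robust variance prior, each library left out, identical rows counted once, the median of the macrophage markers in place of their mean, and a threshold of 0.1.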

Additional observations from a re-analysis of the deposited data

How the results depend on the processing

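Depth and abundance are unknown, and 2 libraries per group limit every value. Same-numbered libraries were not alike (correlation of their deviations from the group means -0.094), so the number is not taken as a pairing. With the replicate block 684 genes were called in place of 941, of the 10 genes 0 as before, and of the lipoprotein receptors 0 in place of 2. Quantile normalization called 1061 genes and one column spread 1095, each including 1 of the 10, *Abcg1*, and 1 lipoprotein receptor. They turned the difference of *Nr1h3* to 0.0066 and 0.0063. At an adjusted p-value under 0.1 there were 2317 of all 12661 genes and 2 of the 10. In the lists there were 7 of 17 cholesterol handling genes, 6 of 22 LXR targets and partners and 2 of 15 lipoprotein receptors. Of other scavenger receptors there were 4 of 15, and of genes of sterol regulation 2 of 19. With 1 library left out, which leaves a lone library assumed to vary like the other group and 1 residual degree of freedom fewer, between 0 and 1790 genes were called. The counts then ran from 0 to 2 for the 10 genes, from 0 to 3 for cholesterol handling, from 0 to 4 for LXR targets and partners, from 0 to 2 for lipoprotein receptors and from 0 to 4 for other scavenger receptors. Without sham replicate 1, 0 genes were called, without sham replicate 2, 1, without injury replicate 1, 284 and without injury replicate 2, 1790. Differences then ran from -0.23 to 0.035 for *Apoe*, from -0.035 to 0.033 for *Nr1h3* and from -0.13 to 0.022 for *Marco*, the genes whose sign turned. The robust variance prior, and identical rows counted once where applied to the count over all genes, changed no direction and no count by over 1.5 times. No other difference of the 10 genes or the named genes changed sign under the alternatives run.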

Other observations

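Genes known from lipid-laden macrophages of obese fat and atherosclerotic plaque were looked at in a list of 13 added after the results above were known. Of the 13, 5 rose by limma and none fell, 10 were above and 1 below sham in both injury libraries, and the median difference was 0.74. Of all genes, 3.76% rose, 31.6% were above and 30.3% below sham in both injury libraries. *Trem2*, which encodes a lipid-sensing receptor of macrophages, was at -1.67 and -1.70 after sham operation and at 0.30 and -0.03 after injury, a rise of 1.82 (standard error 0.16, adjusted p = 0.0285 from limma). *Gpnmb*, a lysosomal glycoprotein gene, rose by 1.89 (adjusted p = 0.0291 from limma) and *Lgals3*, galectin-3, by 1.64 (adjusted p = 0.0301 from limma). *Atp6v0d2*, a subunit of the proton pump of lysosomes, rose by 1.59 (adjusted p = 0.0285 from limma).

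*Spp1*, osteopontin, had the highest difference of the list, 2.25, from -2.27 and -1.12 to 0.76 and 0.35 (adjusted p = 0.037 from limma). *Cd9*, a tetraspanin gene and the 1 gene below sham, was lower in both injury libraries with a difference of -0.46 that did not pass (adjusted p = 0.102 from limma). All 5 calls were lost without sham replicate 1 (adjusted p = 0.176 from limma) and without sham replicate 2 (adjusted p from 0.113 to 0.124 from limma), and that of *Spp1* also without injury replicate 1 (adjusted p = 0.0886 from limma). The macrophage markers moved in the same libraries with a median of 1.42, and their part in these values was not tested.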
